A study of Mus musculus with 10 samples.

Results

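Matrix metalloproteinases (Mmp), the Adamts and Adamts-like (Adamtsl) proteins and the tissue inhibitors of metalloproteinases (Timp) were examined in 3 regions of the mouse heart. Members were the genes whose symbol carries one of these family names, read from the RefSeq accession of each array probe. A gene was kept when all arrays of 1 region or more read a probe for it as well above background, which left 29 of the 50 genes with a named probe, among 14650 named genes kept on the whole array. The 29 genes were 12 of 22 Mmp genes, 4 of 4 Timp genes, 9 of 19 Adamts genes and 4 of 5 Adamtsl genes.

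Hearts of C57BL/6N mice were divided into the right ventricle (RV, n = 4), the left ventricle (LV, n = 3) and the ventricular septum (septum, n = 3), and total RNA of each was hybridised to its own 1-colour Agilent array. Neither an operation, a treatment nor a genetic change is named for these mice, and their age and sex are not given in the sources used here. Different individuals were used for each experiment, so replicates are separate animals as far as the labels tell, but whether the 3 regions of a replicate number came from 1 heart is not stated. The study used the regions to ask which genes mark the RV. Levels below are log2 processed signal minus the array's 75th percentile, so a difference of 1 is a 2-fold change, and the level of a probe is never set against that of another probe.

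These proteins share the work of cutting and preserving the matrix between cells. Most Mmp proteins are zinc proteases made as inactive precursors, some secreted and some held in the membrane, and between them they cut collagens, gelatin, elastin and proteoglycans. Adamts proteases trim procollagen, cut proteoglycans such as versican and act on microfibrils, whereas Adamts-like proteins resemble them but lack the protease part. Timp proteins bind the active site of the Mmp proteins and, in the case of Timp3, of several Adamts proteases too. In the heart this balance is best known for its part in fibrosis and chamber dilatation.

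Arrays were alike in signal, with 53.7 to 64.0% of probes well above background and no saturated spot, and the number of arrays limits the precision. They were run on 2 slides, with replicates 1 and 2 of each region on slide 1 and the 4 others on slide 2. All 10 cardiomyocyte markers were measured and none was called between regions, with medians of -0.10 for RV minus LV and -0.05 for RV minus septum. With the replicate block described further on, which raised the calls over all probes too, 3 of them passed as lower in RV than in LV and 1 as lower than in septum. In bulk tissue, fewer cells of a type and less RNA per cell cannot be told apart. Several markers of other cells were higher in RV. Against LV, 4 of 11 fibroblast markers (median difference 0.50), 5 of 10 adipocyte markers and 4 of 7 valve and cartilage markers were called higher, against 2.31% of all probes. Only 6 of the 10 adipocyte markers had a higher mean in RV than in LV. No valve and cartilage marker was called against septum (median difference 0.25), and their median for septum minus LV was 1.71. Against septum 10 of 11 mesothelium markers were called higher (median difference 3.14), against 1.2% of all probes. The fibroblast score, the mean of the markers' levels around their own means, was 0.23 to 0.48 in RV, -0.54 to -0.29 in LV and -0.18 to 0.07 in septum, without overlap. The gap between septum and LV rests on 1 marker, Wif1 (septum minus LV 2.55). The median of the 11 markers for septum minus LV was 0.17, and none was called. The part of these cells in the results below was not tested.

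In RV against LV, 2 of the 29 genes passed the test, limma with Benjamini-Hochberg adjustment over 30234 probes at an adjusted p below 0.05. Both, Mmp23 and Timp2, were higher in RV. Over all probes 3.86% passed (697 higher and 470 lower, or 894 and 284 when the percentile was taken over probes detected on every array), and the 2 genes are 6.9% of the 29. Of all probes, 2.31% passed as higher in RV. In RV against septum 1 gene passed, Mmp23, against 2.08% of all probes, or 1.2% in that direction (364 higher and 264 lower, or 341 and 126 after scaling by the median). No gene passed between septum and LV by limma (background 0.0%), where 2 genes, Mmp23 and Adamts8, had an unadjusted p below 0.05 against 2.85% of all probes. The F test over all 3 regions called Mmp23 and Timp2, against 2.78% of all probes. The 3 comparisons share their arrays, so each is given with its own values and none is support for another.

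**Figure D1:**
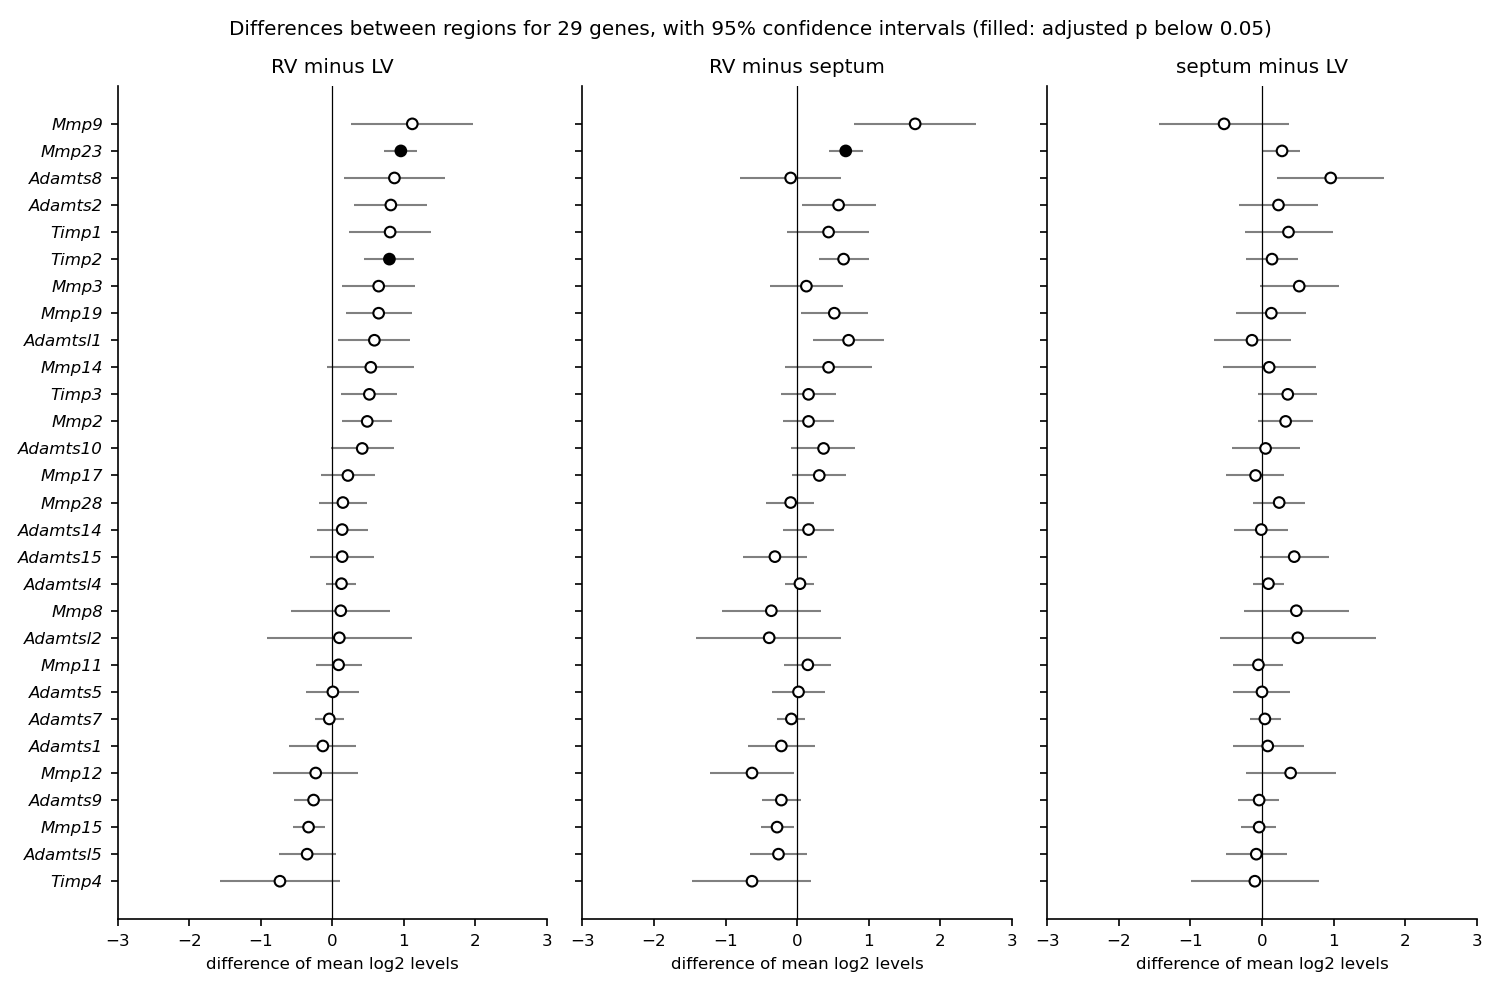
Difference of the mean log2 level between regions for each of the 29 genes (points, with 95% confidence intervals from the limma fit), for RV minus LV (left), RV minus septum (middle) and septum minus LV (right). Filled points passed the test over all probes: Mmp23 and Timp2 against LV, and Mmp23 against septum.

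By the brightest probe of each gene, Mmp23 had the smallest adjusted p of the 29 genes in both RV comparisons. It encodes a membrane-anchored metalloproteinase that is freed by a furin-like cut and, unlike most of its family, lacks the hemopexin domain. Its level was 0.96, 0.97, 1.30 and 1.12 in the 4 RV arrays, 0.10, 0.27 and 0.03 in LV, and 0.52, 0.33 and 0.38 in septum. The regions did not overlap, with the RV highest and the LV lowest. The difference was 0.96 ± 0.11 (SE, 1.94-fold) for RV minus LV, with an adjusted p of 0.00317 by limma. For RV minus septum it was 0.68 ± 0.11 (1.60-fold, limma adjusted p = 0.0156). For septum minus LV it was 0.28 ± 0.11, with a 95% confidence interval of 0.02 to 0.53 and a limma adjusted p of 1.0. Slide 1 alone gave a difference of 0.78 from LV and slide 2 alone 1.18 (limma adjusted p = 0.0359 and 0.0543), and the gene passed when any 1 array was left out (range 0.89 to 1.02). The difference from septum kept its size (0.61 to 0.73) when any 1 array was left out, but missed the threshold without RV replicate 4, septum replicate 2 or septum replicate 3. It also missed it with no filter on dim probes, within slide 1 (0.55) and within slide 2 (0.83), with limma adjusted p of 0.0867, 0.0818 and 0.103.

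Timp2 stood beside Mmp23 as an inhibitor with the same order of regions in its means. Timp2 inhibits many Mmp proteins and, bound to the membrane protease Mmp14, also takes part in activating Mmp2. The brighter of its 2 probes had levels of 5.64, 5.59, 6.20 and 6.01 in RV, 4.99, 5.06 and 5.14 in LV, and 5.25, 5.02 and 5.35 in septum. Every RV array was above every LV and septum array, while LV and septum overlapped. RV minus LV was 0.80 ± 0.15 (1.74-fold, limma adjusted p = 0.0240), and RV minus septum was 0.65 ± 0.15 (1.57-fold, limma adjusted p = 0.0705). Blocking on the replicate number gave 0.60 for the latter, with a limma adjusted p of 0.0357.

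The dimmer Timp2 probe read 2.52, 2.57, 2.37 and 2.48 in RV, 1.57, 1.81 and 1.45 in LV, and 1.79, 1.71 and 1.60 in septum. Its RV arrays were tightly grouped and again stood clear of both other regions. The RV minus LV difference was 0.87 ± 0.099 (limma adjusted p = 0.00359) and RV minus septum was 0.78 ± 0.099 (limma adjusted p = 0.00653) on this probe. Call by call, the 2 probes therefore matched against LV and parted against septum, although their differences there were close. On the brighter probe, the difference from LV missed the threshold when RV replicate 4 or any LV array was left out, with values of 0.68 to 0.89 over all 10 such fits. The call was also lost with Tukey's correction, scaling by the median and no filter on dim probes, and the difference was 0.59 within slide 1 and 0.97 within slide 2.

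The promoters of these genes, the only ones that passed, are shown as the 250 bases before the gene start in RefSeq (GRCm38.p6, minus strand in both cases), with any TATA box (TATAAA), GC box (GGGCGG) or AP-1 site (TGANTCA) found on either strand in capitals. The Mmp23 window, chr4:155653385-155653634, belongs to the farther upstream of 2 starts, and the Timp2 window is chr11:118355412-118355661.
Mmp23: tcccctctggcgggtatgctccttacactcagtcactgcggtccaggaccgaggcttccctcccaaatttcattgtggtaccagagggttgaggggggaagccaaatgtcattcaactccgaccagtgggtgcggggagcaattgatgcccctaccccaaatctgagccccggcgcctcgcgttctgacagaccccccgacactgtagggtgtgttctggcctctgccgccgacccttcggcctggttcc
Timp2: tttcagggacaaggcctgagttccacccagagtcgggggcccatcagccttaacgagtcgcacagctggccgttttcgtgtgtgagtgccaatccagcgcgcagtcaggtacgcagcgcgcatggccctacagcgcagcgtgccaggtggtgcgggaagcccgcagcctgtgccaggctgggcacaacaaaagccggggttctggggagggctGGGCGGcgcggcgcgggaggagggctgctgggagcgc
The Mmp23 window held none of the 3 motifs, with a GC content of 61.2% and 13 CG dinucleotides. The Timp2 window held 1 GC box, beginning 37 bases before the start, in 68.0% GC with 21 CG dinucleotides. Both were richer than the median of all 32851 windows (52.4% GC and 6 CG dinucleotides). Of the 19 members with a window, 14 had a GC box, 3 a TATA box (Adamts1, Adamtsl2 and Mmp3) and 2 an AP-1 site (Mmp12 and Mmp3), against 32.7%, 12.4% and 6.75% of all windows. These matches describe letters only.

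Timp1 and Timp3 were, like Timp2, higher on every RV array than on every LV array, without passing the test, whereas Timp4 had the lower mean in RV. Timp1, an inhibitor that injured or inflamed tissue induces, was 1.84, 1.89, 2.11 and 1.97 in RV, 1.33, 1.53 and 0.58 in LV, and 2.07, 1.31 and 1.16 in septum. Septum replicate 1 lay among the RV values. Against LV the difference was 0.81 ± 0.26 (1.75-fold, limma adjusted p = 0.120), but it was 0.44 within slide 1 and 1.46 within slide 2, and once slide entered the fit as a block it passed at a limma adjusted p of 0.0408. RV minus septum was 0.44 ± 0.26 (limma adjusted p = 0.504).

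Timp3, which stays bound to the matrix, was 5.07, 5.01, 5.57 and 5.36 in RV, 4.67, 4.55 and 4.98 in LV, and 5.21, 4.81 and 5.26 in septum. The lowest RV array was only just above the highest LV array, and septum fell within the RV range except for replicate 2. RV minus LV was 0.52 ± 0.17 (1.43-fold, limma adjusted p = 0.135), and the second probe gave 0.52 ± 0.20. With the replicate block the brighter probe gave 0.48 (limma adjusted p = 0.0253) and the second probe 0.49 (limma adjusted p = 0.0534), which did not pass. With the slide block the brighter probe gave 0.46 with a limma adjusted p of 0.0203. RV minus septum was 0.16 ± 0.17.

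Timp4, the inhibitor best known from heart muscle, went the other way in its means. Its levels were 3.57, 3.36, 1.70 and 2.87 in RV, 3.69, 3.63 and 3.50 in LV, and 3.56, 3.67 and 3.29 in septum. RV replicate 3 was far below the other arrays, with RV replicate 4 next, and the remaining RV arrays lay close to LV and septum. The RV minus LV difference was -0.73 ± 0.37 (95% confidence interval -1.57 to 0.11, limma adjusted p = 0.322) and -0.34 without RV replicate 3. The second probe showed the same low array, 0.75 against 1.90 to 2.50 in the other RV arrays.

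**Figure D2:**
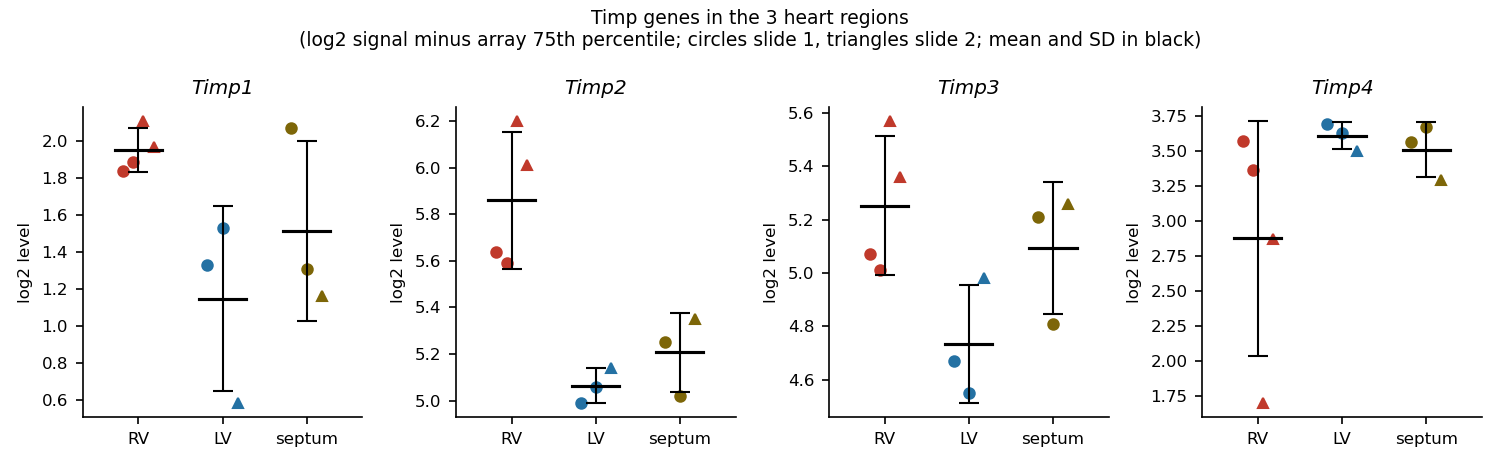
Log2 level of the 4 Timp genes on each array (circles slide 1, triangles slide 2, with the mean and SD of each region in black), on an axis of its own for each gene. Timp2 in RV, 5.59 to 6.20, lay above all LV and septum arrays, while Timp4 was low in RV replicate 3 (1.70).

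Among secreted gelatinases and stromelysins, the RV had the higher means, and none passed the test. Mmp9, a gelatinase carried by neutrophils and macrophages, was near the detection limit: its kept probe was well above background on 4 of 4 RV arrays, 0 of 3 LV arrays and 1 of 3 septum arrays. Levels were -2.94, -3.09, -2.70 and -2.51 in RV, -4.13, -4.13 and -3.53 in LV, and -3.60, -5.50 and -4.27 in septum. Every RV array was brighter than every other array. LV therefore has only a bound. With each LV array set at the higher of its own reading and the dimmest detected probe, the RV mean was 1.8-fold higher. That value is an estimate and not a lower limit, since Mmp9 did not pass (limma adjusted p = 0.142). The limma difference was 1.12, with a confidence interval of 0.27 to 1.97. No bound was set against septum, where 1 array read the kept probe above background. The other Mmp9 probe was not kept and was well above background on 1 RV array only, so it cannot decide the difference. It read -3.88 in septum replicate 3, above all its RV readings (-5.6 to -3.95). Mmp9 entered the test only through RV, the region where it was high, so calls of it as higher in RV under other settings (normexp background correction, the slide as a block against septum, or without septum replicate 2 against LV and without septum replicate 1 against septum) are not independent of that filter. Of the neutrophil markers 3 of 8 were measured and none was called, and 10 of 10 macrophage markers had a higher mean in RV than in LV and septum with none called (medians 0.31 and 0.30), although with the replicate block 5 passed as higher than in LV and 3 as higher than in septum. The part of these cells in the Mmp9 result was not tested.

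Mmp2, the gelatinase made by fibroblasts, was 1.26, 1.49, 1.90 and 1.77 in RV, 0.91, 1.29 and 1.15 in LV, and 1.32, 1.56 and 1.46 in septum. Septum exceeded LV on every array and overlapped with RV. Against LV the difference was 0.49 ± 0.16 (1.40-fold, limma adjusted p = 0.123).

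Mmp3, a stromelysin able to activate other Mmp precursors, was 0.16, 0.28, 0.95 and 0.64 in RV, -0.01, 0.00 and -0.42 in LV, and 0.81, 0.22 and 0.10 in septum. Its LV arrays were below all others. RV minus LV was 0.65 ± 0.23 (1.57-fold, limma adjusted p = 0.152), being 0.23 within slide 1 and 1.21 within slide 2, and septum minus LV was 0.52 ± 0.24.

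Mmp12, the macrophage elastase, was dim in all regions, at -3.79, -3.28, -3.69 and -2.99 in RV, -2.93, -2.87 and -3.83 in LV, and -2.99, -2.62 and -2.82 in septum. It was detected on every RV and septum array and on 2 of 3 LV arrays, and its RV values were mostly below those of septum. RV minus septum was -0.63 ± 0.26 (limma adjusted p = 0.327).

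Of the membrane-bound and furin-activated Mmp genes other than Mmp23, none passed the test. Mmp15, a transmembrane metalloproteinase, was 0.03, 0.13, 0.23 and 0.38 in RV, 0.48, 0.51 and 0.56 in LV, and 0.36, 0.43 and 0.64 in septum. By the brightest probe of each gene, it alone was below LV on every RV array. The RV minus LV difference was -0.33 ± 0.10 (1.25-fold lower, limma adjusted p = 0.114), or -0.39 with a limma adjusted p of 0.0141 under the replicate block, and RV minus septum was -0.28 ± 0.10, or -0.34 with a limma adjusted p of 0.0253 under that block.

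Mmp17, held in the membrane by a lipid anchor, was -1.20, -1.32, -0.69 and -0.83 in RV, -1.32, -1.37 and -1.0 in LV, and -1.39, -1.47 and -1.12 in septum. Mmp11, which leaves the cell already active, was 0.28, 0.30, 0.66 and 0.68 in RV, 0.20, 0.34 and 0.61 in LV, and 0.19, 0.31 and 0.50 in septum. In both genes the arrays of slide 2 were higher than those of slide 1 in each region, and the regions overlapped. Against LV the difference was 0.22 ± 0.17 for Mmp17 and 0.09 ± 0.14 for Mmp11.

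Mmp19, which by its values and not by the rule for named genes is given here, is a secreted protease and was higher in every RV array (-0.62 to -0.10) than in LV (-1.45 to -0.70) and septum (-1.26 to -0.65). RV minus LV was 0.65 ± 0.21 (limma adjusted p = 0.119) and RV minus septum was 0.52 ± 0.21 (limma adjusted p = 0.292). With the replicate block these were 0.73 and 0.60, with limma adjusted p of 0.0216 and 0.0476. The other Mmp19 probe was not kept, being well above background on 3 of 4 RV arrays and on 1 of 3 in both LV and septum. Its regions overlapped, at -4.14 to -2.76 in RV, -4.63 to -3.7 in LV and -4.39 to -3.66 in septum. The remaining Mmp genes, Mmp8, Mmp14 and Mmp28, had differences of 0.12 to 0.54 from LV and -0.36 to 0.44 from septum, none called. Mmp14 was well above background on 1 of 3 arrays in both LV and septum, so it was kept only through RV. Mmp8 was well above background on 2 of 3 arrays in LV and 3 of 3 in septum.

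**Figure D3:**
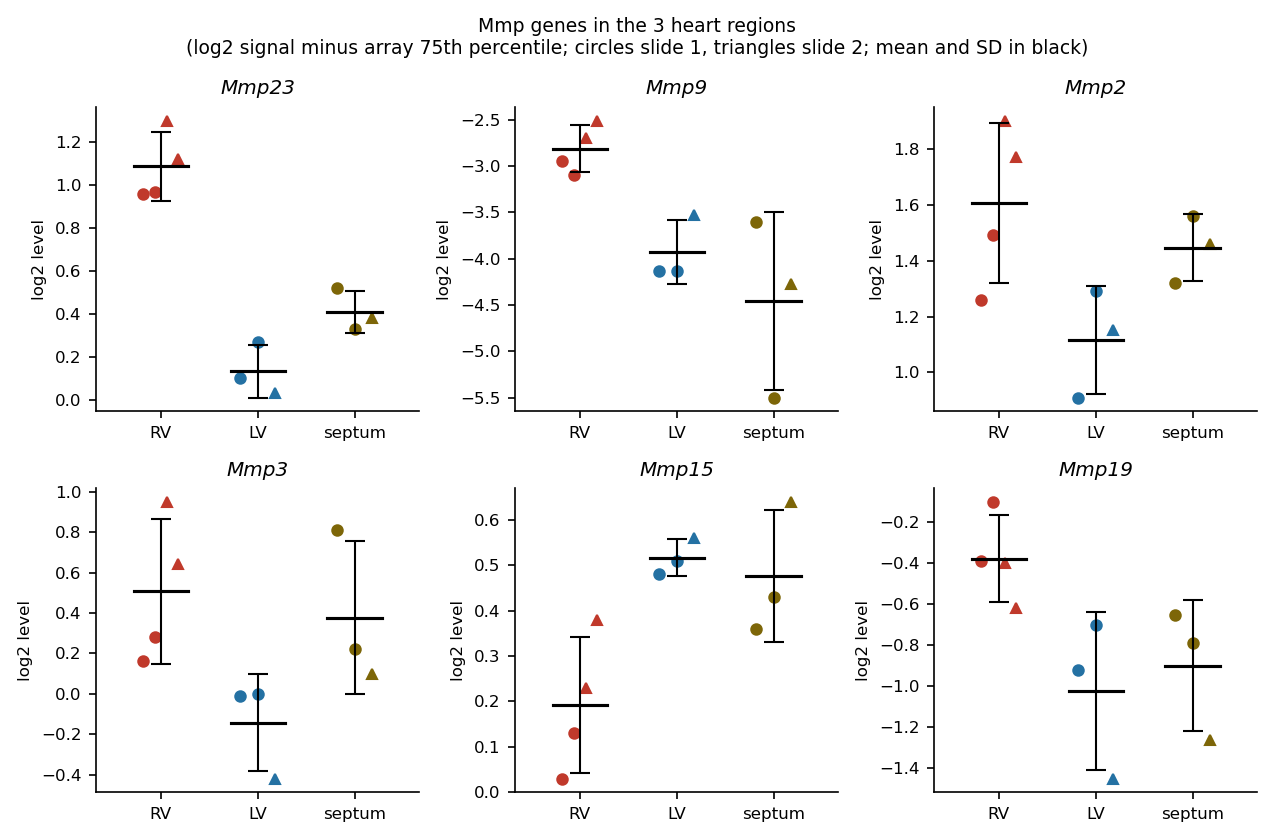
Log2 level of 6 Mmp genes on each array (circles slide 1, triangles slide 2, with the mean and SD of each region in black), on an axis of its own for each gene. Mmp23, Mmp9 and Mmp19 in RV lay above all other arrays, Mmp15 in RV lay below all LV arrays, and Mmp2 and Mmp3 were lowest in LV on average.

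In the Adamts group no gene passed the test in any comparison, and the largest differences were in genes with uneven RV arrays. Adamts2, which removes the amino-terminal propeptide of procollagen, was 2.50, 2.74, 3.51 and 3.29 in RV, 2.0, 2.49 and 2.10 in LV, and 2.40, 2.47 and 2.41 in septum. The RV arrays of slide 2 were high, and the lowest RV array was just above the highest LV and septum arrays. The RV minus LV difference was 0.82 ± 0.23 (1.76-fold, limma adjusted p = 0.0848), being 0.38 within slide 1 and 1.30 within slide 2, and it passed without RV replicate 1 or with the slide as a block (limma adjusted p = 0.0402).

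Adamts8, a protease of proteoglycans, was -2.64, -2.45, -1.08 and -1.98 in RV, -2.90, -2.90 and -2.91 in LV, and -1.73, -2.08 and -2.02 in septum. Its LV arrays were nearly equal and below all others. Against LV the difference was 0.87 ± 0.31 (1.82-fold, limma adjusted p = 0.163), falling to 0.55 without RV replicate 3, and septum minus LV was 0.96 ± 0.33 (1.95-fold, limma adjusted p = 1.0, unadjusted p = 0.0174).

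Adamts1, a versican-cutting protease, was 0.43, 0.46, 1.12 and 0.68 in RV, 0.49, 0.72 and 1.20 in LV, and 0.81, 0.75 and 1.11 in septum. Adamts7, which cuts cartilage oligomeric matrix protein (Comp), was 1.74, 1.79, 1.48 and 1.73 in RV, 1.72, 1.76 and 1.69 in LV, and 1.70, 1.83 and 1.77 in septum. Regions overlapped in both, and the Adamts7 difference, -0.04 ± 0.088 for RV minus LV, had a 95% confidence interval of -0.24 to 0.16.

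The other Adamts genes, Adamts5, Adamts9, Adamts10, Adamts14 and Adamts15, differed by -0.26 to 0.42 between RV and LV. Chosen after their values were seen, 3 of them passed under the replicate block and not without it: Adamts10, linked to microfibrils, at 0.33 for RV minus LV and 0.27 for RV minus septum (limma adjusted p = 0.0177 and 0.0383), Adamts9, a versican protease, at -0.25 for RV minus LV (limma adjusted p = 0.0369), and Adamts15 at -0.45 for RV minus septum (limma adjusted p = 0.0452). For the last of these the fit without the block gave -0.31 ± 0.20. The dimmer kept probe of Adamts10 did not pass under the replicate block (limma adjusted p = 0.0614 against LV and 0.248 against septum). With the slide as the block, Adamts10 passed in both comparisons (limma adjusted p = 0.00659 and 0.018) and Adamts9 against LV (limma adjusted p = 0.0425), whereas Adamts15 against septum had a limma adjusted p of 0.0557.

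Adamts-like genes were divided. Adamtsl2, a regulator of fibrillin microfibrils, was -1.55, -1.37, 0.35 and -0.26 in RV, -1.23, -0.77 and -0.44 in LV, and -0.61, -0.59 and 0.25 in septum, so arrays of slide 2 were the highest in each region. RV minus LV was 0.10 ± 0.45 and changed sign between slides (-0.46 and 0.48). Adamtsl4, another microfibril protein, was 2.37, 2.40, 2.08 and 2.29 in RV, 2.08, 2.22 and 2.16 in LV, and 2.21, 2.21 and 2.31 in septum, a difference of 0.13 ± 0.092 from LV.

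Adamtsl5 was 1.63, 1.66, 1.91 and 2.09 in RV, 1.94, 2.06 and 2.50 in LV, and 1.90, 1.96 and 2.40 in septum. Within each slide its RV arrays were the lowest. The RV minus LV difference was -0.35 ± 0.18 (limma adjusted p = 0.329), and with the replicate block -0.43 (limma adjusted p = 0.0160) and -0.35 against septum (limma adjusted p = 0.0370). Its dimmer kept probe did not pass under that block (limma adjusted p = 0.0747 against LV and 0.177 against septum). Adamtsl1, also chosen after its values were seen, was detected on every RV array and on 2 of 3 arrays in LV and septum. Against LV the difference was 0.59 ± 0.22 and RV minus septum 0.72 ± 0.22, or 0.50 and 0.63 under the block (limma adjusted p = 0.0138 and 0.0101). It entered the test only through RV, the region where it was high, so these values are not independent of the filter on dim probes.

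Across the families, 10 genes did not overlap between RV and LV, 9 higher and 1 lower, against 8.1% and 11.1% of all probes. Against septum 5 did not overlap, all higher, where 5.86% of all probes did so. Mmp9, kept only through RV, where it was high, is among the higher genes in both counts. Septum was above LV without overlap in 4 (Adamts8, Mmp2, Mmp3 and Mmp23), against 3.55%. Since 5 genes (Adamtsl1, Mmp8, Mmp9, Mmp12 and Mmp14) were kept only through regions where they were detected throughout, the 24 genes detected on all 10 arrays are also given: 18 had a higher mean in RV than in LV, 75% against 40.8% of all probes detected on all arrays, 9 of them at an unadjusted p below 0.05 and 1 lower (Mmp15), against 7.77% and 11.7%. In RV against septum 14 of 24 were higher, 58.3% against 41.7%, with 4 at that p and 1 lower, against 5.92% and 7.74%. The members were chosen with results known, so these shares are a description.

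By family, the median of RV minus LV was 0.35 in Mmp, 0.66 in Timp, 0.14 in Adamts and 0.12 in Adamtsl genes, next to -0.037 over all probes. Mmp9, Mmp14 and Adamtsl1, kept only through RV, where they were high, are part of these medians. Over the genes detected on all 10 arrays the Mmp median was 0.35 (8 genes) and the Adamtsl median 0.1 (3 genes). Over all alternatives run, the Mmp median stayed between 0.19 and 0.59 and the Timp median between 0.43 and 0.72. The Adamts median was 0.0 with the replicate block and without RV replicate 4, which give the same differences because number 4 occurs only in RV. The Adamtsl median fell to -0.06 within slide 1, -0.03 without RV replicate 3 and -0.01 without LV replicate 1. For RV minus septum the family medians, in the same order, were 0.15, 0.30, -0.08 and -0.11, next to -0.032. Over the genes detected on all 10 arrays the Mmp median against septum was 0.15 and the Adamtsl median -0.26. The Mmp median there was as low as 0.02 within slide 1, and the Adamts median turned to 0.09 without RV replicate 1 and 0.01 without septum replicate 1. In the fit blocked on replicate number, 9 members passed against LV (6 higher and 3 lower, against 14.9% of all probes, 6.23% higher and 8.69% lower) and 8 against septum (5 higher and 3 lower, against 7.12%, 3.36% higher and 3.77% lower). Blocking on the slide gave 11 and 8, against 17.6% and 8.74%. The F test called 8 members with the replicate block and 10 with the slide block, against 8.83% and 12.7%. These counts include Adamtsl1, and those against septum and of the F test with the slide block also include Mmp9. Slide 1 and slide 2 gave the same sign of RV minus LV in 23 of 29 genes, 18 higher and 5 lower. No share of all probes stands beside this count, so it only describes these genes. Mmp9, Mmp14 and Adamtsl1, kept only through RV, are among the 18.

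RV replicate 3 was an uneven array for these families, the highest of the 4 RV arrays in 13 genes and the lowest in 4, whereas RV replicate 1 was the lowest in 16. The RV arrays of slide 2 also had smooth muscle and pericyte scores of 0.83 and 0.56, against -0.19 and -0.08 on slide 1, and valve and cartilage scores of 1.46 and 0.90 against 0.20 and 0.14. In LV the smooth muscle score was -0.34 to -0.12 and the valve score -1.64 to -1.01. In septum they were -0.46 to 0.18 and -0.13 to 0.82, both overlapping with RV. Both scores were also highest on slide 2 in LV and in septum. Only 5 of the 9 smooth muscle and pericyte markers had a higher mean in RV than in LV. Their median difference was 0.05, with a range of -0.31 to 2.3, and none was called in the fit without a block. The part of these cells in the results for Adamts2, Adamts8, Mmp3, Timp2 and Timp4 was not tested. Without RV replicate 3, Mmp23 and Timp2 were still the genes called against LV.

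**Figure D4:**
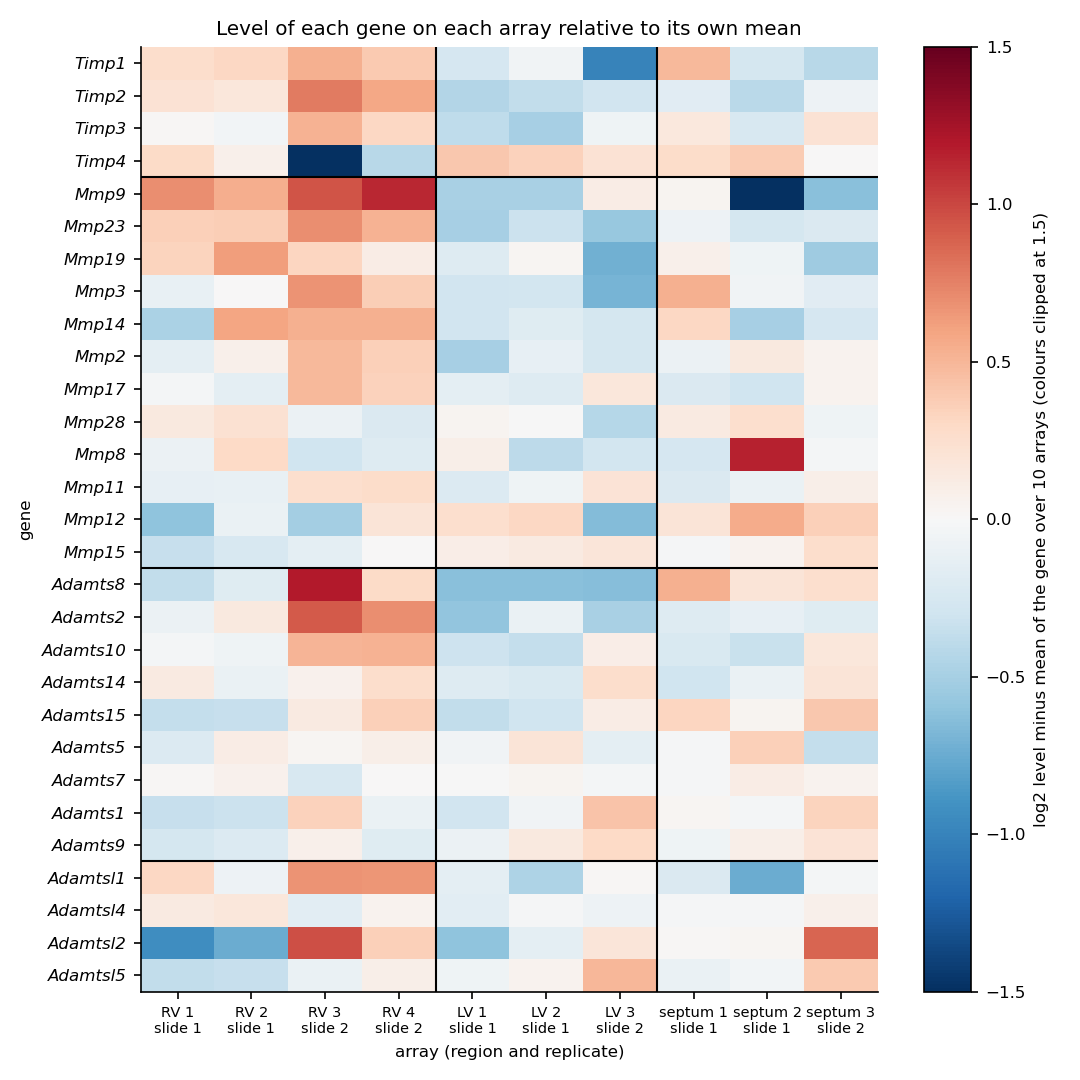
Level of each of the 29 genes on each array minus the gene's mean over the 10 arrays, in log2 units (red higher, blue lower), grouped by family and ordered by the RV minus LV difference within each. Mmp23, Timp2 and Timp1 were red in all 4 RV arrays, and Timp4 was lowest in RV replicate 3.

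Other genes of the same biology were taken from lists and described by their counts. Over all probes 2.31% were called higher in RV than in LV and 1.2% higher than in septum. With the replicate block these shares were 6.23% and 3.36%, with 8.69% and 3.77% called lower. Of 23 other matrix proteases measured, none was called in any comparison, with medians of 0.11 against LV and 0.05 against septum. Of 13 other protease inhibitors, Reck, a membrane-anchored inhibitor of Mmp proteins, was higher in RV than in both LV (1.1, limma adjusted p = 0.00377) and septum (0.66, limma adjusted p = 0.0360), and Serpine2, an inhibitor of serine proteases, was higher than in LV (0.46, limma adjusted p = 0.0359). Reck was 1.43, 1.53, 2.02 and 1.70 in RV, 0.49, 0.65 and 0.58 in LV, and 0.97, 0.99 and 1.07 in septum, an order of regions without overlap. With the replicate block, 2 of the other proteases passed as lower than in LV (Adam19 and Ctsd) and 1 as lower than in septum (Ctsd), and 4 and 2 of the inhibitors as higher.

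Among 16 activators and cofactors 3 were higher in RV than in LV. They were the proprotein convertase Pcsk5 (0.59, limma adjusted p = 0.0405), the Adamts1 cofactor Fbln1 (0.77, limma adjusted p = 0.0485) and the proteoglycan Sdc4 (0.46, limma adjusted p = 0.0237), the last also against septum (0.46, limma adjusted p = 0.0354). Among 18 substrates 4 were higher in RV than in LV: fibronectin Fn1 (1.17, limma adjusted p = 0.0188), Comp (2.91, limma adjusted p = 0.0341), thrombospondin Thbs1 (1.93, limma adjusted p = 0.0396) and von Willebrand factor Vwf (1.65, limma adjusted p = 0.00377). Vwf was also higher against septum (1.18, limma adjusted p = 0.0212). No gene of these 4 lists was called lower in this fit, and none was called between septum and LV in this fit or with the replicate block. With that block 7 activators and cofactors passed against LV (4 higher and 3 lower) and 2 against septum (both higher), and Pcsk5 no longer did (limma adjusted p = 0.055). Of the substrates 7 passed against LV (5 higher and 2 lower) and 3 against septum (2 higher and 1 lower). Of all probes, 14.9% passed against LV and 7.12% against septum with that block. Comp is also on the valve and cartilage list, and the part of such cells in its difference was not tested.

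The 21 genes not kept were Mmp1a, Mmp1b, Mmp7, Mmp10, Mmp13, Mmp16, Mmp20, Mmp21, Mmp24, Mmp25, Adamts3, Adamts4, Adamts6, Adamts12, Adamts13, Adamts16, Adamts17, Adamts18, Adamts19, Adamts20 and Adamtsl3. Of these 11 had no probe well above background on any array, and Adamts18 came closest to being kept, with 5 of 10 arrays. Being not well above background gives only an upper bound on the level, and no comparison was made.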

How the data were processed

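Total RNA of RV (n = 4), LV (n = 3) and septum (n = 3) from C57BL/6N mice was labelled with Cy3 and hybridised to SurePrint G3 Mouse arrays. The deposited scanner files hold intensity values, which the authors made with Agilent Feature Extraction 11.5.1.1 (per the labels); GeneSpring is named for later steps. The authors also deposited a value table in log2 units, which matched the scanner values to within a constant per array and was used as an alternative. The processed signal was taken as log2 minus each array's 75th percentile, after leaving out control and outlier spots (56 to 128 per array), and spots of 1 probe were averaged. Of 56605 probes, 30234 passed the filter, which asked that all arrays of 1 region or more be well above background, and were tested. Symbols came from RefSeq accessions through a gene table of GRCm38.p6 (32994 probes, 22911 genes).

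limma 3.58.1 in R 4.3.3 fitted 1 mean per region over all 10 arrays (prior degrees of freedom 2.46), with Benjamini-Hochberg adjustment over all probes, and genes were called at an adjusted p below 0.05. The brightest kept probe stood for a gene. A gene's values on every array were given if it was a Timp, was called, was among the 3 highest or 3 lowest differences of a comparison, was detected in 1 region and nowhere in another, or was among the brightest of its family; genes outside this rule are named as such. The members and lists were chosen with earlier results of these data known. The code was tested on simulated data. Slide numbers come from the file headers. Arrays of the same number in their titles deviated together from their region means in each of 9 pairs (r = 0.36 to 0.645, against 0.0906 to 0.577 for other numbers of the same slide and -0.564 to -0.207 between slides), so a fit with the number as a block is given beside a result whose call it changes. Same-numbered arrays also share a slide. On slide 2, RV replicate 4 went with LV and septum replicate 3 (r = 0.571 and 0.577) more closely than RV replicate 3 did (r = 0.426 and 0.444). Number 4 occurs only in RV, so that array adds nothing to the differences of the blocked fit. Alternatives were other scalings, normexp (offset 50, run on the median signal in place of the mean), other filters, the slide as a block, each slide alone, the methods' analysis of variance with Tukey's correction, the mean of a gene's probes, and leaving out each array. The p-values measure the spread between these arrays only.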

Additional observations from a re-analysis of the deposited data

Results flagged for a closer look

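Of the 29 genes, tested for a stray array in the RV group of 4, 1 stood out: Mmp14, the membrane protease that activates Mmp2, read -3.73 in RV replicate 1 against -2.73 to -2.67 in the other RV arrays. The gap was 0.938 of the range, above Dixon's critical value for 4 arrays. Chance marks about 1 in 20 groups of this size, and the LV values were -3.55 to -3.44. The cause was not tested.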

How the results depend on the processing

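Called genes in RV against LV were 2 in the reported fit. They were 9 with the replicate number as a block, 11 with the slide as a block, 1 within slide 1, 1 within slide 2 (Timp1 and not Mmp23, where LV and septum have 1 array each, assumed to vary like the RV), 1 with the analysis of variance and Tukey's correction, 1 with no filter, 1 with scaling by the median, and 1 to 3 when each array was left out. Against septum 1 gene was called. There were 8 with the replicate block, 8 with the slide as a block, 2 with the percentile of always-detected probes, 2 with the mean of a gene's probes, 2 with normexp, 0 with no filter, 0 within slide 1, 1 within slide 2 (Mmp9 and not Mmp23), and 0 to 2 when each array was left out (0 without RV replicate 4, septum replicate 2 or septum replicate 3). The F test over all 3 regions called 2 genes, and 8 with the replicate block, 10 with the slide as a block, 1 with the analysis of variance, with no filter, with quantile normalization and with scaling by the median, 0 within either slide, and 1 to 2 when each array was left out. Septum against LV called 0 in every alternative. The replicate block changed no other call of a member or of its other probes than those given with the results. In the marker lists, fibroblast calls rose from 4 to 6 against LV and from 2 to 3 against septum, all higher in RV. Mesothelium calls rose from 1 to 8 against LV, all higher in RV. Endothelium calls against LV went from 0 to 3 (1 higher and 2 lower). Smooth muscle calls against LV went from 0 to 3 (2 higher and 1 lower). The atrial marker Nppa was called lower in RV than in LV and septum, and 1 adipocyte marker was dropped against septum. Over all probes the replicate block raised the share called from 3.86% to 14.9% against LV and from 2.08% to 7.12% against septum. No gene reversed its direction among called values. The cause of these shifts was not tested. Signal over background limits the dim genes: 5 of the 29 genes were not well above background on all arrays.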
